A study of Mus musculus with 12 samples.

Results

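The transcripts of 9 factors of nonsense-mediated mRNA decay and of the exon junction complex (UPF1, UPF2, UPF3B, SMG1, SMG5, SMG6, RNPS1, EIF4A3 and MAGOH) were examined in RNA-Seq libraries of U2OS cells, a human osteosarcoma cell line. The genes were found by their full names among the 58735 genes listed by the authors, and all 9 were matched and passed the filter on low values. They were among 17538 genes tested. Each of the 4 groups held 3 libraries: blank U2OS cells, U2OS cells with overexpression of LINC01134, a long non-coding RNA (OE-LINC01134), and U2OS cells given either of the siRNAs against the splicing factor SRSF1, siSRSF1-2 or siSRSF1-3. The study asked how SRSF1 acts in osteosarcoma cells. No library of cells given a control siRNA was analysed here, and none of cells carrying an empty vector, so transfection and target cannot be told apart in any difference from the blank cells. The labels do not say whether replicates came from separate cultures, so the p-values measure only the spread between these libraries.

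Nonsense-mediated decay removes mRNAs on which translation ends too early. When a spliced mRNA leaves the nucleus it carries exon junction complexes just upstream of its exon junctions, built on the RNA-clamping helicase EIF4A3 with the heterodimer of MAGOH and RBM8A, and the peripheral factor RNPS1 can join them. A ribosome that stops upstream of such a complex leaves it in place, UPF3B and UPF2 link it to the helicase UPF1, the kinase SMG1 phosphorylates UPF1, and SMG5 and the endonuclease SMG6 bind phosphorylated UPF1 and bring about the degradation of the mRNA. SRSF1, the siRNA target here, is an SR protein of pre-mRNA splicing. Several transcripts of decay factors are themselves known to be decay targets, among them SMG1, SMG5, SMG6, UPF1, UPF2 and UPF3B.

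The reads assigned to genes numbered 26237763 to 32954539 per library, and expression is given as FPKM (fragments counted per kilobase of a gene, divided by a library size). SRSF1 stood at 35.9, 19.8 and 20.5 FPKM in the blank libraries, at 7.09, 7.46 and 7.41 with siSRSF1-2 and at 3.33, 6.81 and 7.90 with siSRSF1-3. Every siRNA library was below every blank library, and the exact two-sided permutation test gave p = 0.1 for each siRNA, the smallest value that 3 libraries against 3 can give. LINC01134 stood at 891, 1280 and 878 FPKM in the overexpressing libraries against 0.497 to 0.791 in the blank libraries (exact permutation p = 0.1). Of the lineage markers looked up, SPARC (36 to 111 FPKM), COL1A1 (14.1 to 39.7 FPKM), RUNX2 (1.55 to 3.92 FPKM) and ALPL (1.09 to 12.9 FPKM) were present in all 12 libraries, whereas COL1A2 did not exceed 0.0131 FPKM. CDKN2A and TERT, known to be low or lost in U2OS, did not exceed 0.115 FPKM, and ATRX, also named for loss in this line, was at 3.33 to 7.16 FPKM. The leukocyte and endothelial markers (PTPRC, CD74, PECAM1, CDH5) did not exceed 0.368 FPKM, and the epithelial genes EPCAM and CDH1 ranged from 0.345 to 2.43 FPKM.

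Some libraries stood apart from others of their own group. The chi-square per degree of freedom of the reads over genes was 2.60 to 3.20 among the siSRSF1-2 libraries, 2.75 between blank replicates 2 and 3, and 2.13 between OE-LINC01134 replicates 1 and 3. It was 63.2 and 66.4 between blank replicate 1 and the other blank libraries, 66.5 and 68.6 between OE-LINC01134 replicate 2 and the others of its group, and 92.8, 120 and 316 among the siSRSF1-3 libraries. The scaling of the FPKM also differed: siSRSF1-3 replicates 1 and 2 were scaled as if they held 0.712 and 0.888 times their actual reads, the other libraries 0.990 to 1.09 times, and the FPKM of siSRSF1-3 replicate 1 summed to 611084 against 281051 to 410612 in the other libraries. All libraries were kept, and results that rest on one of them are given with and without it.

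In the blank cells the levels per length were ordered with SMG5 first, at 50 ± 2.06 FPKM (SD, n = 3), and SMG6 last, at 2.84 ± 0.111 FPKM. Both proteins bind phosphorylated UPF1, and their transcripts lay at the opposite ends of the order. MAGOH followed SMG5 at 27.8 ± 3.22 FPKM, then RNPS1 at 23.6 ± 0.421 and EIF4A3 at 21.4 ± 5.22 FPKM, and the ranges of RNPS1 and EIF4A3 overlapped. UPF2 at 12.8 ± 1.85 FPKM and UPF1 at 11.1 ± 3.00 FPKM overlapped as well. UPF3B at 7.69 ± 0.250 FPKM and SMG1 at 5.10 ± 0.156 FPKM did not overlap with their neighbours. By mean, SMG5 was first and SMG6 last in each of the 4 groups (with siSRSF1-3 the ranges of SMG5 and MAGOH overlapped), and SMG1 stood above UPF3B only with siSRSF1-2, where the ranges of these genes overlapped.

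**Figure D1:**
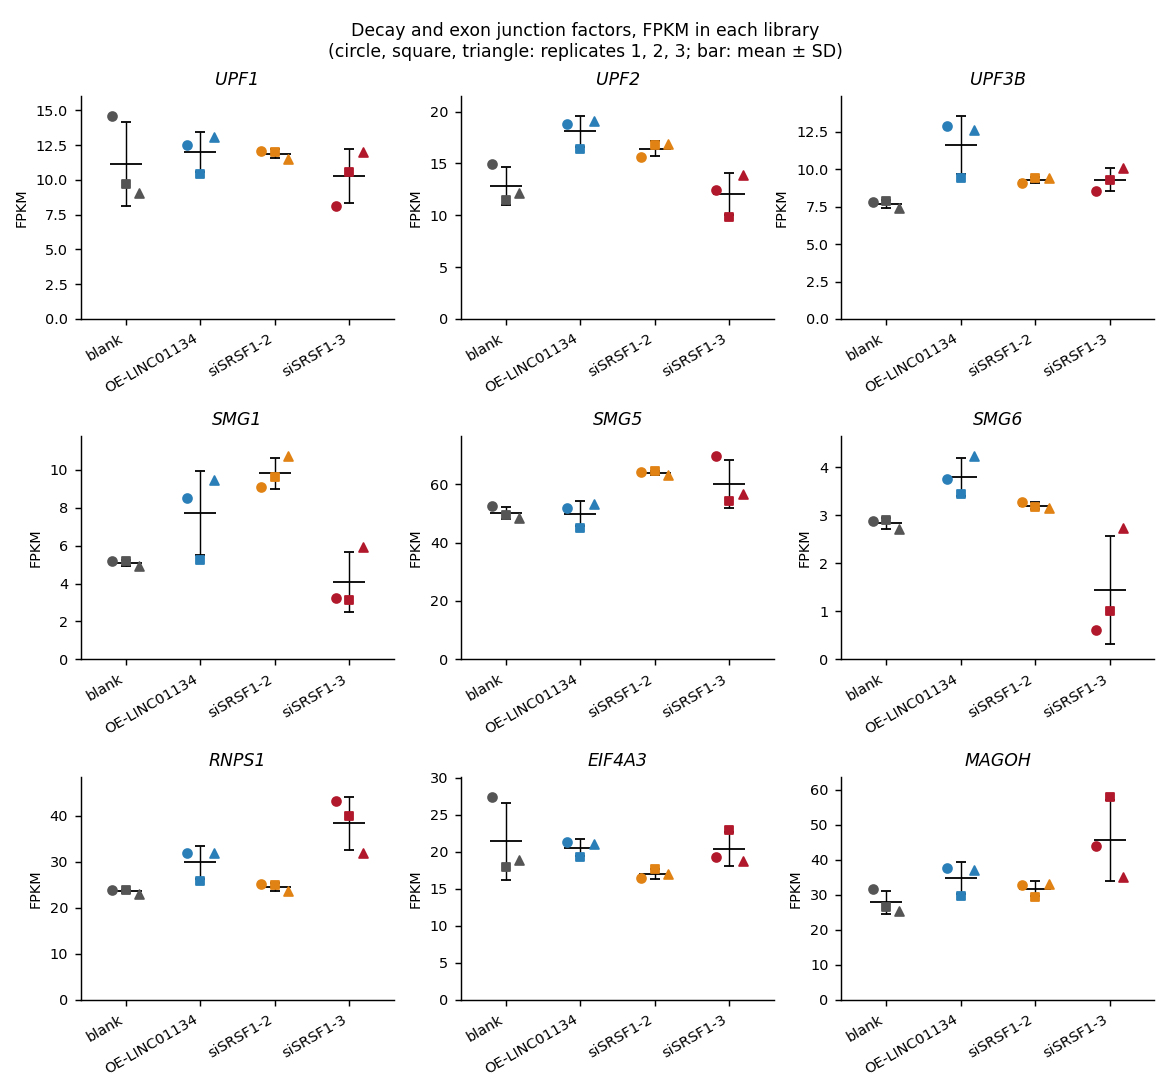
FPKM of the 9 factors in each library, by group. The vertical axes start at 0, circles, squares and triangles are replicates 1, 2 and 3, and bars give the mean and SD of 3 libraries. SMG1 stands at 9.11 to 10.7 FPKM in the siSRSF1-2 libraries against 4.92 to 5.21 in the blank libraries, and SMG6 at 0.623, 0.999 and 2.73 FPKM in the siSRSF1-3 libraries.

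The clearest difference among these factors was that of SMG1 with siSRSF1-2. SMG1, the kinase of UPF1 (chr16:18804853-18926454, minus strand, in coordinates of the files, whose human build is not given in the sources used here), stood at 5.17, 5.21 and 4.92 FPKM in the blank libraries and at 9.11, 9.64 and 10.7 FPKM with siSRSF1-2. The groups were well apart. SMG1 rose 1.90-fold, a log2 fold change of 0.93 on the scale of log2(FPKM + 0.1) (SE 0.0816, 95% interval 0.73 to 1.13, limma adjusted p = 0.00181). SMG5, the adaptor that recruits decay activity to UPF1 (chr1:156249224-156282825, minus strand), stood at 64.3, 64.4 and 63.1 FPKM with siSRSF1-2 against 52.4, 49.4 and 48.4 in the blank libraries. It rose by less, 1.28-fold (log2 fold change 0.35, SE 0.0544, limma adjusted p = 0.00743). UPF3B, which bridges the exon junction complex to UPF2 (chrX:119805311-119852998, minus strand), stood at 9.07, 9.45 and 9.41 FPKM against 7.80, 7.87 and 7.40, without overlap. Its rise was 1.21-fold (log2 fold change 0.27, SE 0.0627, limma adjusted p = 0.0246).

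The other 6 factors did not pass the limma test on FPKM with siSRSF1-2, and voom on the recovered reads also called UPF2 (0.35, adjusted p = 0.0449). UPF2, the scaffold between UPF3B and UPF1 (chr10:11920022-12043170, minus strand), stood at 15.6, 16.8 and 16.9 FPKM against 14.9, 11.5 and 12.1 in the blank libraries. Its log2 fold change was 0.36 (SE 0.111, limma adjusted p = 0.0571), with every siSRSF1-2 library above every blank library. SMG6 (chr17:2059839-2303771, minus strand) was also higher without overlap, at 3.16 to 3.28 FPKM against 2.71 to 2.91 (log2 fold change 0.17, limma adjusted p = 0.163). EIF4A3 (chr17:80135214-80147183, minus strand) was the only one of the 9 below the blank libraries without overlap, at 16.4, 17.7 and 17.0 FPKM against 27.4, 17.9 and 18.9. It was not called (log2 fold change -0.30, SE 0.166, 95% interval -0.70 to 0.10, limma adjusted p = 0.227), and blank replicate 1 was far above the other blank libraries. Of 13 alternative settings, 1 called it. UPF1 (chr19:18831938-18868236, plus strand), MAGOH (chr1:53226892-53238610, minus strand) and RNPS1 (chr16:2253116-2268412, minus strand) overlapped between the groups, with log2 fold changes of 0.12, 0.19 and 0.06 and limma adjusted p-values of 0.644, 0.207 and 0.493.

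In all, 3 of 9 factors were called higher and 0 lower with siSRSF1-2, where 14.0% of all genes tested were called higher and 12.8% lower. None passed the study's minimum of an absolute log2 fold change over 1 together with the adjusted p, which 4.95% of all genes passed. With an unadjusted limma p under 0.05 in place of the adjusted p, again 0 of 9 passed this minimum, and limma's voom on the recovered reads also gave 0. At an unadjusted limma p under 0.05 alone, 4 of 9 were higher and 0 lower, where 40.3% of all genes were under that level. The groups did not overlap for 6 of 9 factors, 5 higher and 1 lower, against 49.5% of all genes. The median log2 fold change was 0.19 over the 9 factors and 0.02 over all genes.

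These calls rest on siSRSF1-2 libraries that were very similar to each other, and those of SMG5 and UPF3B on small differences. Blank replicate 1 stood apart from the other blank libraries. SMG1 and SMG5 were called whichever single library was left out, with log2 fold changes of 0.87 to 0.98 and of 0.33 to 0.39. UPF3B was called in 1 of these 6 fits, that without blank replicate 1. With blank replicate 1 left out 6 of the 9 were called, beside 52.2% of all genes. The blank group then held only the near-identical replicates 2 and 3. When the near-identical libraries were averaged, a choice made after the data were seen that leaves 1 siSRSF1-2 library, 0 of the 9 were called, beside 0 of all genes, and one fit over all 4 groups, whose spread includes the siSRSF1-3 libraries, called 0 of the 9 and 3.76% of all genes. With OE-LINC01134 as the reference in place of the blank cells, SMG5 was again higher (log2 fold change 0.36, limma adjusted p = 0.0176), the difference of SMG1 was 0.38 (limma adjusted p = 0.256), and that of UPF3B had the opposite sign (-0.30, limma adjusted p = 0.136).

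**Figure D2:**
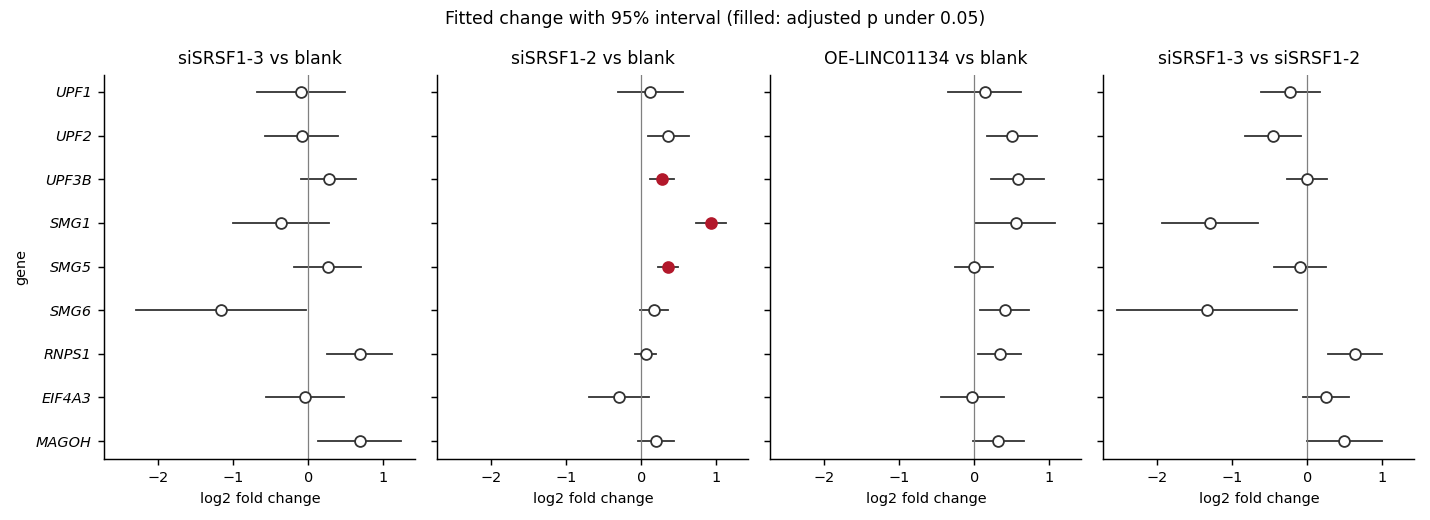
Log2 fold change of each factor in the 4 comparisons, on the scale of log2(FPKM + 0.1). Points are limma estimates from 3 libraries against 3, lines the 95% intervals, and filled points have an adjusted p under 0.05. The filled points are UPF3B, SMG1 and SMG5 with siSRSF1-2, and the widest intervals are those of SMG6 with siSRSF1-3, from -2.30 to -0.03 against the blank cells and from -2.53 to -0.14 against siSRSF1-2.

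With siSRSF1-3 the 9 factors were far more scattered between replicates, and none was called by limma. The siRNA target SRSF1 itself was not called in this comparison (log2 fold change -2.09, limma adjusted p = 0.0518). The absence of calls therefore does not show that the factors were unchanged. At an unadjusted p under 0.05 there were 2 higher (RNPS1 and MAGOH) and 1 lower (SMG6), 3 of 9 where 28.8% of all genes were under that level, and voom on the recovered reads called 0. Of all genes, 0.342% were called higher and 0.935% lower, and 1.26% passed the study's minimum fold change as well. The groups did not overlap for 4 of 9 factors, all higher (UPF3B, SMG5, RNPS1 and MAGOH), against 37.2% of all genes in either direction. The median log2 fold change over the 9 factors was -0.05, and over all genes -0.01.

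SMG6, the endonuclease that cuts the mRNA near the early stop, differed most. It stood at 0.623, 0.999 and 2.73 FPKM in siSRSF1-3 replicates 1, 2 and 3, from 129, 268 and 900 reads, against 2.89, 2.91 and 2.71 FPKM in the blank libraries. Replicates 1 and 2 were far below all other libraries, and replicate 3 was within the blank range. The log2 fold change was -1.16 (SE 0.480, 95% interval -2.30 to -0.03, limma adjusted p = 0.167), and without replicate 3 it was -1.72 (limma adjusted p = 0.0117). Over all omissions of single libraries it ran from -1.72 to -0.73, with limma adjusted p-values up to 0.375. The SD of SMG6 over the siSRSF1-3 libraries was 1.01 on the log2 scale, against a median of 0.395 over all genes in this group. The files list 14 genes that overlap SMG6, 2 of them with a mean of at least 0.5 FPKM, and how reads in them were counted is not given in the sources used here.

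As for SMG6, replicate 3 was the highest library of the group for SMG1, at 3.24, 3.11 and 5.91 FPKM in siSRSF1-3 replicates 1, 2 and 3, with replicate 3 above and the others below all blank libraries. Its log2 fold change against the blank cells was -0.37 (SE 0.270, limma adjusted p = 0.367), and without replicate 3 it was -0.67 (limma adjusted p = 0.0213). It ran from -0.67 to -0.21 over all omissions of single libraries, with limma adjusted p-values up to 0.695. Once the trend of fold change with gene length was removed it was -0.03. The gene length listed for SMG1, 25988 bases, is the longest among the 9.

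RNPS1 and MAGOH of the exon junction complex stood above the blank cells in all 3 siSRSF1-3 libraries. RNPS1 was at 43.1, 39.9 and 31.9 FPKM against 23.8, 23.8 and 23.1, again with replicate 3 closest to the blank libraries. Its log2 fold change was 0.69 (SE 0.184, 95% interval 0.25 to 1.12, limma adjusted p = 0.0917). MAGOH was at 43.8, 57.9 and 35 FPKM against 31.5, 26.5 and 25.5 (log2 fold change 0.69, SE 0.234, limma adjusted p = 0.126). EIF4A3, which MAGOH binds in the core of the complex, was at 19.3, 23.0 and 18.8 FPKM, inside the blank range (log2 fold change -0.05, 95% interval -0.57 to 0.47). Without replicate 3, the library closest to the blank libraries, both RNPS1 (0.81, limma adjusted p = 0.0129) and MAGOH (0.86, limma adjusted p = 0.0228) were called. Over all omissions of single libraries RNPS1 ran from 0.60 to 0.81 (limma adjusted p up to 0.299). MAGOH ran from 0.50 to 0.86 (limma adjusted p up to 0.335). With the gene length trend removed the log2 fold change of MAGOH was 0.44 and that of RNPS1 0.91.

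The other factors differed from the blank cells by smaller log2 fold changes with siSRSF1-3. SMG5 was at 69.5, 54.3 and 56.6 FPKM (log2 fold change 0.26, limma adjusted p = 0.372) and UPF3B at 8.58, 9.28 and 10.1 FPKM (0.27, limma adjusted p = 0.275), both without overlap with the blank libraries. With all libraries at an equal sum of FPKM the signs of both turned, to -0.19 for SMG5 and -0.17 for UPF3B. UPF1, the central helicase, was at 8.15, 10.6 and 12 FPKM against 14.6, 9.71 and 9.09, with a 95% interval of the log2 fold change from -0.69 to 0.49. UPF2 was at 12.4, 9.85 and 13.9 FPKM, with an interval from -0.58 to 0.39. These intervals do not show that the levels were equal.

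Replicate 3 decided the number of calls in this comparison. Without it, SMG1, SMG6, RNPS1 and MAGOH were called, 4 of 9, beside 35.9% of all genes. The siSRSF1-3 group then held only the libraries whose implied sizes were 0.712 and 0.888 times their own read totals, and the part of this difference in scaling in the result was not tested. With any other single library left out, 0 of the 9 were called. One fit over all 4 groups called SMG6 (adjusted p = 0.0416), RNPS1 (adjusted p = 0.00987) and MAGOH (adjusted p = 0.0229), beside 27.8% of all genes. With all libraries brought to an equal sum of FPKM, the median of all genes moved from -0.01 to -0.43, and 0 of the 9 were called.

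**Figure D3:**
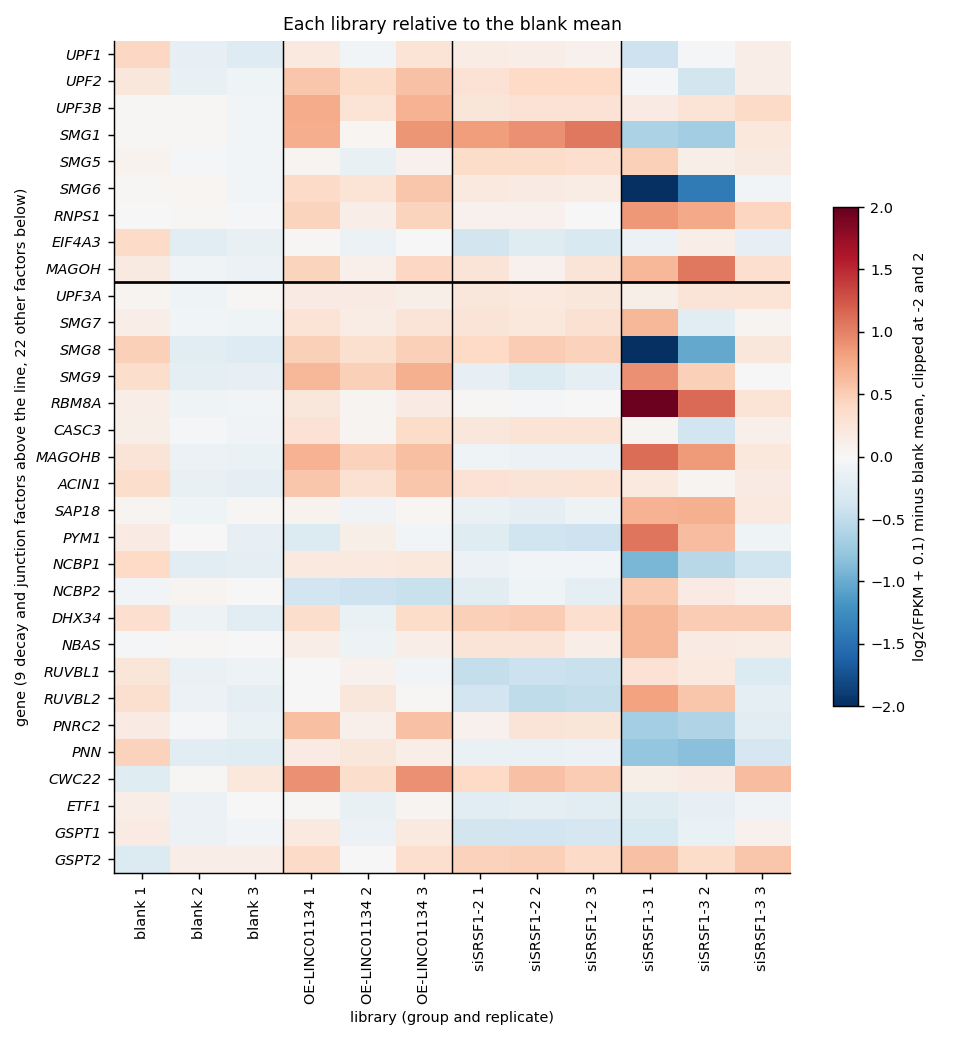
Log2(FPKM + 0.1) of each library minus the mean of the blank libraries, for the 9 factors (above the line) and for 22 other decay and junction factors (below it), with the colours clipped at -2 and 2. In siSRSF1-3 replicates 1 and 2, SMG6 is at -2.02 and -1.42 and SMG1 at -0.64 and -0.70, while in replicate 3 they are at -0.05 and 0.21.

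The siRNAs were also compared with each other. None of the 9 factors was called by limma between siSRSF1-3 and siSRSF1-2, where 0.0342% of all genes were called higher with siSRSF1-3, 0.0513% lower, and 0.0855% passed the study's minimum fold change too. At an unadjusted p under 0.05, 2 factors were higher (RNPS1 and MAGOH) and 3 lower (UPF2, SMG1 and SMG6), 5 of 9 where 42.1% of all genes were under that level, and voom called 0. The groups did not overlap for 6 of 9, 3 higher and 3 lower, against 54.6% of all genes. SMG1, at 3.11 to 5.91 FPKM with siSRSF1-3 and 9.11 to 10.7 with siSRSF1-2, had a log2 fold change of -1.30 (SE 0.262, 95% interval -1.94 to -0.66, limma adjusted p = 0.0738). SMG6 had one of -1.33 (SE 0.489, limma adjusted p = 0.102), UPF2 of -0.46 (SE 0.153, limma adjusted p = 0.0920) and RNPS1 of 0.63 (SE 0.146, limma adjusted p = 0.0767). UPF3B did not separate the siRNAs, with a log2 fold change of -0.00 and a 95% interval from -0.27 to 0.26. Without siSRSF1-3 replicate 3, 6 of the 9 were called (UPF2, SMG1, SMG6, RNPS1, EIF4A3 and MAGOH), beside 61.2% of all genes, with SMG1 at -1.59 (limma adjusted p = 0.00135). Over all omissions of single libraries SMG1 ran from -1.59 to -1.14, with limma adjusted p-values up to 0.240.

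Overexpression of LINC01134 left all 9 factors uncalled by limma, and voom called 0 as well. Before adjustment, 5 of 9 had a p under 0.05, all of them higher, as had 26.3% of all genes in either direction. Of all genes, 0.450% were called higher, 0.730% lower, and 0.850% passed the study's minimum fold change. The 5 factors (UPF2, UPF3B, SMG1, SMG6 and RNPS1) were above all blank libraries in all 3 libraries, against 30.6% of all genes without overlap in either direction. The median log2 fold change was 0.34 over the 9 factors and 0.05 over all genes.

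UPF3B stood at 12.9, 9.39 and 12.6 FPKM with OE-LINC01134 (log2 fold change 0.58, SE 0.150, limma adjusted p = 0.0885). UPF2, its partner, stood at 18.8, 16.4 and 19.1 FPKM (0.50, SE 0.138, limma adjusted p = 0.0952). SMG1 stood at 8.51, 5.24 and 9.45 FPKM (0.55, SE 0.224, limma adjusted p = 0.183), and SMG6 at 3.75, 3.44 and 4.23 FPKM (0.41, SE 0.136, limma adjusted p = 0.131). In each of these genes replicate 2 was closest to the blank libraries. RNPS1 stood at 32.0, 25.8 and 31.9 FPKM (0.34, limma adjusted p = 0.143) and MAGOH at 37.7, 29.6 and 37.0 FPKM (0.32, limma adjusted p = 0.207). SMG5, EIF4A3 and UPF1 had log2 fold changes of -0.01, -0.03 and 0.14, with 95% intervals of -0.26 to 0.25, -0.45 to 0.39 and -0.35 to 0.62.

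OE-LINC01134 replicate 2, the library that stood apart in its group, decided the calls here. Without it 6 of the 9 were called higher (UPF2, UPF3B, SMG1, SMG6, RNPS1 and MAGOH), beside 25.5% of all genes, with UPF3B at 0.72 (limma adjusted p = 0.00813) and SMG1 at 0.80 (limma adjusted p = 0.00867). The OE-LINC01134 group then held only replicates 1 and 3, a near-identical pair (chi-square per degree of freedom 2.13). The part of this similarity in the calls was not tested. Over all omissions of single libraries UPF3B ran from 0.49 to 0.72 (limma adjusted p up to 0.319). SMG1 ran from 0.38 to 0.80 (limma adjusted p up to 0.491). Without blank replicate 1, UPF2 was the only one called (0.62, limma adjusted p = 0.0237), beside 13.9% of all genes. The comparisons with the blank cells share the same 3 blank libraries, and the values of SMG6 in them were 0.41 with OE-LINC01134, 0.17 with siSRSF1-2 and -1.16 with siSRSF1-3.

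Ratios of FPKM within a library do not depend on how the library was scaled. They were chosen after the values had been seen and carry no test. The SMG6/SMG5 ratio was 0.0553, 0.0589 and 0.0560 in the blank libraries and 0.0725, 0.0767 and 0.0795 with OE-LINC01134, without overlap. It was 0.0510, 0.0493 and 0.05 with siSRSF1-2 and 0.00897, 0.0184 and 0.0483 with siSRSF1-3. All siRNA libraries were thus below all blank libraries in this ratio, those of siSRSF1-2 and siSRSF1-3 replicate 3 by a small margin. The 2 siRNAs differed in the genes behind it. With siSRSF1-2 SMG6 was itself above the blank libraries (log2 fold change 0.17) and SMG5 rose by more (0.35). With siSRSF1-3 the log2 fold changes were -1.16 for SMG6 and 0.26 for SMG5. How often other pairs of genes separate in this way was not computed. The SMG1/UPF1 ratio, the kinase over its substrate, was 0.828 ± 0.0891 with siSRSF1-2 against 0.478 ± 0.107 in the blank cells (SD, n = 3), without overlap, and 0.395 ± 0.1 with siSRSF1-3, with overlap. The MAGOH/EIF4A3 ratio was 1.33 ± 0.166 in the blank cells and higher without overlap in the other groups, at 1.69 ± 0.128 with OE-LINC01134, 1.87 ± 0.190 with siSRSF1-2 and 2.22 ± 0.331 with siSRSF1-3. The same was true of RBM8A, the partner of MAGOH in the heterodimer. Its ratio to EIF4A3 was 0.642 to 0.837 in the blank libraries, 0.850 to 0.873 with OE-LINC01134 and 0.881 to 0.986 with siSRSF1-2. In siSRSF1-3 replicates 1, 2 and 3 it was 3.25, 1.53 and 1.03. With siSRSF1-2 the log2 fold change of RBM8A itself was -0.01 and that of EIF4A3 -0.30. The RNPS1/EIF4A3 ratio was likewise higher without overlap, at 1.45 with OE-LINC01134, 1.44 with siSRSF1-2 and 1.89 with siSRSF1-3 against 1.14 in the blank cells (means).

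**Figure D4:**
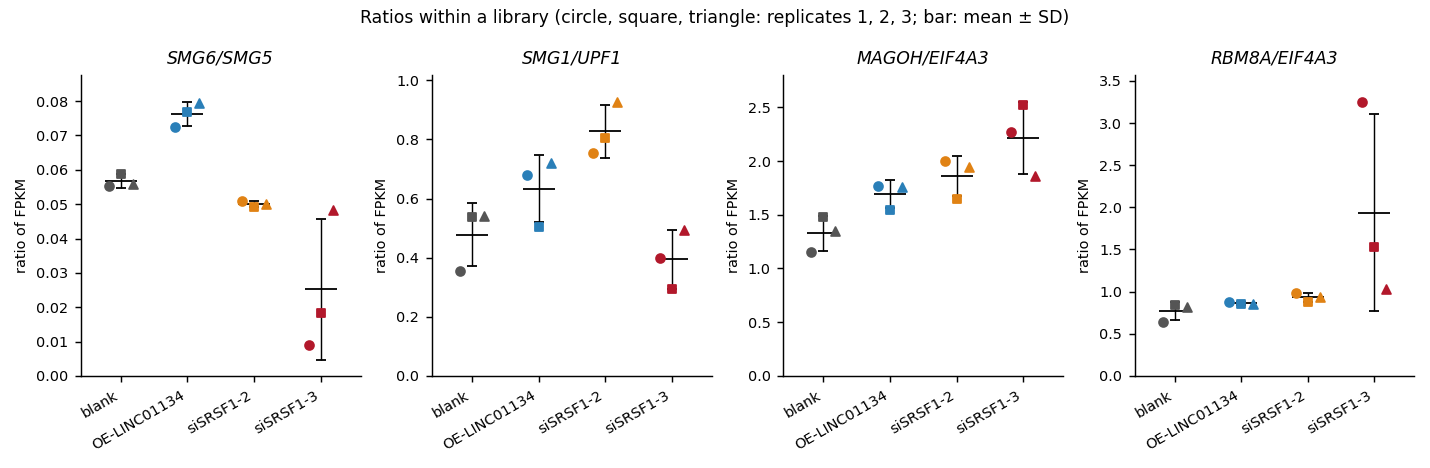
Ratios of FPKM within each library for 4 pairs of genes, with axes starting at 0. Circles, squares and triangles are replicates 1, 2 and 3, and bars give the mean and SD of 3 libraries. SMG6/SMG5 is 0.00897 in siSRSF1-3 replicate 1, and MAGOH/EIF4A3 is lowest in the blank group, at 1.15 to 1.48.

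Over the 12 libraries the factors did not vary as one. Pearson's r of log2(FPKM + 0.1) between pairs of them ran from 0.881 for RNPS1 and MAGOH to -0.722 for SMG6 and RNPS1, and it is given as a description since the points share groups and scaling. The SD between replicates, as the median over the 9 factors, was 0.0586 in the blank group, 0.177 with OE-LINC01134, 0.0473 with siSRSF1-2 and 0.252 with siSRSF1-3 on the log2 scale. Over all genes tested it was 0.223, 0.226, 0.0771 and 0.395. Among other genes, the pattern most like that of SMG1 was that of KIAA2026 (r = 0.994, 12 libraries), followed by the coiled-coil domain containing 144B pseudogene (r = 0.991) and vacuolar protein sorting 13 homolog D (r = 0.989). For UPF1 it was nucleolar protein 6 (r = 0.963), cysteine and histidine rich domain containing 1 (r = 0.945) and widely interspaced zinc finger motifs (r = 0.929). For EIF4A3 it was solute carrier family 39 member 7 (r = 0.941), FJX1 (r = 0.925) and proteasome 26S subunit, non-ATPase 12 (r = 0.915).

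Near copies can share reads with these genes. SMG1 has pseudogenes named SMG1P1 to SMG1P7 in the files, and they took between 15.3% and 23.4% of the reads summed over SMG1 and them, with 15.3% to 16.3% in the siSRSF1-2 libraries and 19.8% to 23.4% in the blank libraries. Of the 5 pseudogenes that passed the filter, SMG1P3 rose with siSRSF1-2 (log2 fold change 0.83, limma adjusted p = 0.0178) and the others were not called. The level of SMG1 is therefore uncertain to the extent that reads were split between the copies. Of the paralogs, UPF3A rose slightly with siSRSF1-2 (log2 fold change 0.22, limma adjusted p = 0.0455) and was not called elsewhere, and MAGOHB was not called in any of the 4 comparisons. MAGOHB stood at 22, 18.3 and 11.8 FPKM with siSRSF1-3 against 12, 9.30 and 9.27 in the blank libraries.

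Other factors of the pathway were called in both directions with siSRSF1-2, not far from the shares of all genes. Of 22 such decay and junction factors, UPF3A and MAGOHB included, all passed the filter. With siSRSF1-2, 4 of the 22 were called higher and 2 lower, beside 14.0% and 12.8% of all genes. In the other comparisons 0 were called. Limma's unadjusted p was under 0.05 for 5 higher and 3 lower with siSRSF1-3 against blank, beside 28.8% of all genes in either direction. It was so for 5 higher and 1 lower with OE-LINC01134 (26.3% of all genes) and for 8 higher and 3 lower between the siRNAs (42.1%). With siSRSF1-2 the release factor GSPT1 (-0.36, limma adjusted p = 0.0251) and the ATPase RUVBL1 (-0.45, limma adjusted p = 0.0312) fell, whereas CWC22 (0.49, limma adjusted p = 0.0334), which brings EIF4A3 to the spliceosome, and the exon junction factor CASC3 (0.26, limma adjusted p = 0.0401) rose. The median log2 fold change of these factors was -0.04 with siSRSF1-2, 0.23 with siSRSF1-3 and 0.18 with OE-LINC01134. RBM8A stood at 62.5, 35.3 and 19.4 FPKM in siSRSF1-3 replicates 1, 2 and 3 against 17.6, 15 and 15.4 in the blank libraries (1.13, limma adjusted p = 0.132). SMG8, a regulator of SMG1, stood at 0.720, 4.05 and 9.80 FPKM against 11.6, 7.16 and 6.94, in the same order of libraries as SMG6, and was named after its values were seen.

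Among 18 factors of general mRNA turnover (decapping and deadenylation factors, exonucleases, the exosome helicase MTREX and the poly(A) binding protein PABPC1), 7 were called higher with siSRSF1-2 and 0 lower. Of all genes, 14.0% were called higher and 12.8% lower in this comparison. The exonuclease XRN1 rose most clearly, from 1.84, 1.94 and 1.82 FPKM to 3.25, 3.57 and 3.77 (log2 fold change 0.88, SE 0.0940, limma adjusted p = 0.00278). The deadenylase scaffold CNOT1 (0.60, limma adjusted p = 0.00347), the deadenylase PAN2 (0.56, limma adjusted p = 0.00414) and the decapping factor DCP1A (0.56, limma adjusted p = 0.00486) rose as well. The median was 0.18, against 0.02 over all genes. In the other 3 comparisons 0 of the 18 were called. With siSRSF1-3 the median was -0.12, and CNOT1 stood at 2.72, 6.40 and 16 FPKM in replicates 1, 2 and 3. At an unadjusted limma p under 0.05, 0 were higher and 3 lower, where 28.8% of all genes were under that level. With OE-LINC01134 the median was 0.17, with 4 higher and 1 lower at that level, beside 26.3% of all genes. PAN2 stood at 17.3, 9.95 and 16.8 FPKM against 6.38, 6.77 and 7.13 (1.07, limma adjusted p = 0.0679). Between the siRNAs the median was -0.43, with 1 higher and 7 lower before adjustment, beside 42.1% of all genes.

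The last list held 18 transcripts known as targets of nonsense-mediated decay, many of which are also induced by stress. With siSRSF1-2, 1 of the 18 was called higher and 2 lower, where 14.0% of all genes were called higher and 12.8% lower. The cystine transporter SLC7A11 rose (0.93, limma adjusted p = 0.00278), and the stress gene GADD45B (-0.61, limma adjusted p = 0.00341) and the transcription factor ATF4 (-0.38, limma adjusted p = 0.00497) fell. The median of these targets was 0.72 with siSRSF1-3, against -0.01 over all genes, yet 0 were called. At an unadjusted limma p under 0.05 there were 7 higher and 1 lower, where 28.8% of all genes were under that level. Of the 18, 12 had a positive and 6 a negative log2 fold change. Among the 6, ARHGEF18 (-1.24, limma adjusted p = 0.290) and MAP3K14 (-0.77, limma adjusted p = 0.168) were below all blank libraries. SNHG12, a snoRNA host transcript, stood at 17.3, 13.5 and 8.5 FPKM in siSRSF1-3 replicates 1, 2 and 3 against 6.54, 5.58 and 5.58 (1.08, limma adjusted p = 0.0840). GAS5, another host transcript, stood at 347, 201 and 115 FPKM against 45.9, 84.0 and 88.0 (1.52, limma adjusted p = 0.105), and SNHG15 at 67.2, 37.6 and 20.2 against 11.9, 14.8 and 15.7 (1.39, limma adjusted p = 0.105). The uridine phosphorylase UPP1 stood at 1100, 748 and 436 FPKM against 53.0, 224 and 224 (2.36, limma adjusted p = 0.0938). In each of these 4 transcripts the level was highest in replicate 1 and lowest in replicate 3, the order in which the FPKM of these libraries summed. SRSF1 was lowest in replicate 1 and highest in replicate 3 (3.33, 6.81 and 7.90 FPKM in replicates 1, 2 and 3). The reads recovered in replicates 1, 2 and 3, before any scaling, were 24708, 18585 and 13058 for GAS5 and 4806, 3483 and 2296 for SNHG15. They were 99126, 86984 and 62232 for UPP1, and 1447, 1461 and 1131 for SNHG12, which did not keep the order. The reads on all genes in these libraries were 27546958, 28642184 and 29396784. In the FPKM alone, scaling and remaining SRSF1 cannot be told apart, and neither was tested as a cause. With OE-LINC01134 the median of the targets was 0.23 and 0 were called. Before adjustment 4 were higher and 1 lower, where 26.3% of all genes were under that level. Between the siRNAs the median was 0.55 and 0 were called, with 12 higher and 2 lower before adjustment, where 42.1% of all genes were under it.

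**Figure D5:**
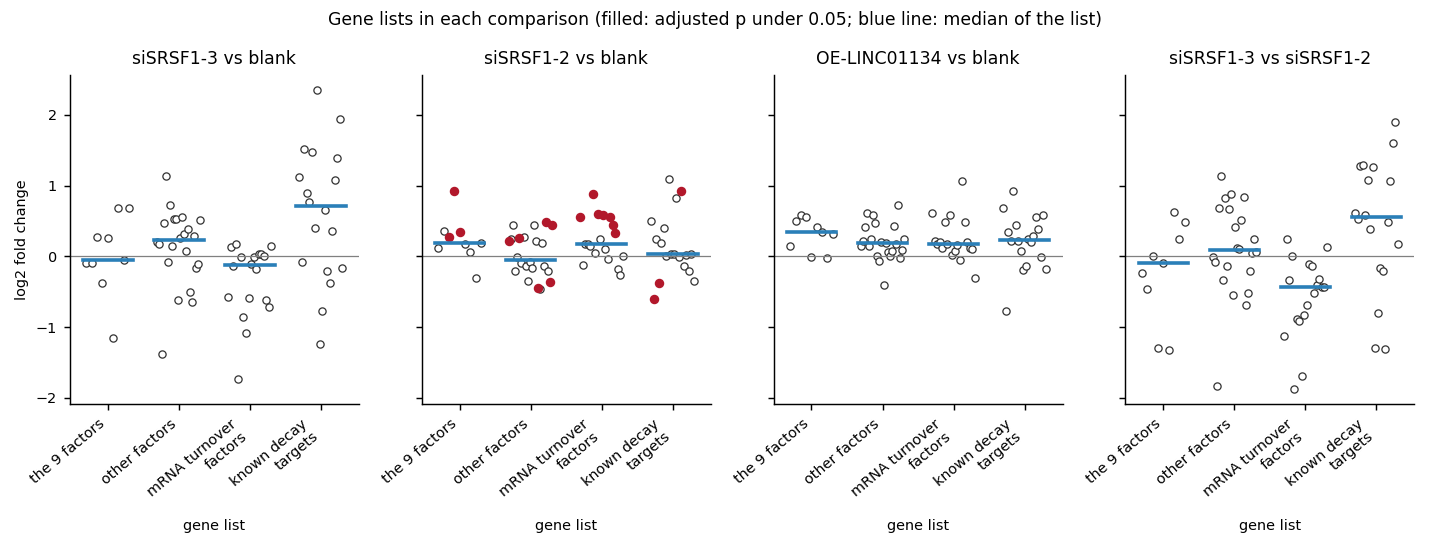
Log2 fold change of each gene in 4 lists (the 9 factors, 22 other factors, 18 factors of general mRNA turnover, and 18 known decay targets) in the 4 comparisons. Points are genes, filled where the adjusted p was under 0.05, and blue lines are list medians. Filled points appear only in the comparison of siSRSF1-2 with blank, and the median of the targets is 0.72 with siSRSF1-3 and 0.04 with siSRSF1-2.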

How the data were processed

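The authors deposited FPKM for 58735 genes in 12 libraries, with gene lengths, coordinates, biotypes and full names but no symbols. The sample labels give mouse as the organism and GRCm38 and mm10 as builds, while the genes carry human Ensembl identifiers and the study describes a human line, so the genes were treated as human. According to the study's supplementary methods mRNA was taken with poly-T beads, prepared with a NEBNext kit and sequenced as paired ends, while the labels name a SMARTer kit and total RNA. The methods place transfection in HOS cells, whereas the labels and the study's own RNA-Seq results give U2OS. The supplementary methods speak of a smaller number of biological replicates than the 3 per group in the labels. The aligner and counting program are not given in the sources used here, nor is the use of strand. Groups followed the labels.

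The product of FPKM and gene length moved in whole steps within each library for 100% of values (tolerance 0.01 of a read), which gave the reads behind each value. The 93 symbols looked up were all matched by full name. One name had 2 identifiers, of which the more abundant was used. Values of log2(FPKM + 0.1) entered limma 3.58.1 (R 4.3.3, lmFit, eBayes with a trend) for the 17538 genes whose FPKM averaged at least 0.5 over the 12 libraries, 3 libraries against 3, and p-values were adjusted by Benjamini-Hochberg over these genes. A gene was called at an adjusted p under 0.05. The added constant makes a fold change of a low gene too small. The script was tested on simulated data. SRSF1 and LINC01134 were tested by exact permutation, and for siSRSF1-3 the limma result of SRSF1 is given too. The text names the 9 factors, up to 4 genes of each other list per comparison with the smallest adjusted p, near copies, and the 3 genes most alike to UPF1, SMG1 and EIF4A3. Other genes were named after their values were seen, among them SMG8, RBM8A in the ratios, and CNOT1, ARHGEF18 and MAP3K14 with siSRSF1-3. The factors and lists were chosen with earlier results of these data known.

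The alternatives were pseudocounts of 1 and 0.01, a filter at a mean of 1 FPKM or none, libraries brought to an equal FPKM sum or to their own read totals, voom (limma) on recovered reads, one fit over all 4 groups, eBayes with no trend, a replicate block, the unadjusted p, OE-LINC01134 as the reference, removal of the gene length trend (loess span 0.5) and omission of each library. The averaging of near-identical libraries was added after the data were seen. No sequence is printed, since no human reference was used here.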

Additional observations from a re-analysis of the deposited data

Results flagged for a closer look

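SMG6 lay on opposite sides of the blank mean in different groups. Every OE-LINC01134 library was above the mean of the blank libraries and every siSRSF1-3 library below it, with mean differences of 0.41 and -1.16 on the log2 scale, 1.57 apart. With OE-LINC01134 as the reference group, the limma fit of siSRSF1-3 gave -1.57 (SE 0.487, adjusted p = 0.0987). In siSRSF1-3 replicate 3 SMG6 was only 0.05 below that mean (-0.05), inside the blank range.

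Every siSRSF1-2 library was likewise above the blank mean for SMG6 (0.17) and every siSRSF1-3 library below it (-1.16), 1.33 apart. The direct comparison of these groups by limma gave an adjusted p of 0.102, and of 0.00224 without siSRSF1-3 replicate 3. With another single library left out the limma adjusted p was up to 0.248. Both flagged results rest on the same siSRSF1-3 and blank libraries.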

How the results depend on the processing

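Replicate numbers did not pair the samples (correlations of deviations between same-numbered libraries from -0.0815 to 0.212). With a replicate block, factors called with siSRSF1-2 numbered 2 in place of 3 (UPF3B was lost, adjusted p = 0.0939) and 0 in each other comparison, and all genes called fell from 4702 to 2476. The block ended the 224 and 15 calls over all genes in the siSRSF1-3 comparisons, leaving 0 in each, and left 4 of 207 with OE-LINC01134.

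Factors called with siSRSF1-3 against blank numbered 0, but 3 in one fit over all 4 groups and 3 by the unadjusted p, with 1 past the fold threshold in each, and 0 to 4 called (0 to 1 past the threshold) with single libraries left out. With siSRSF1-2 the 3 calls became 6 with FPKM rescaled to the same sum (1 past the threshold), 0 in one fit, 0 with near-identical libraries averaged, and 2 to 6 with single libraries left out. With OE-LINC01134 the 0 became 1 in one fit, 5 by the unadjusted p, and 0 to 6 with single libraries left out. Between the siRNAs the 0 became 4 in one fit and 5 by the unadjusted p, with 2 past the threshold in each, and 0 to 6 (0 to 2) with single libraries left out. Other alternatives left these counts within 1.5 times. With OE-LINC01134 as reference the sign turned for UPF3B (-0.31) with siSRSF1-3 and for UPF2 (-0.14), UPF3B (-0.30), SMG6 (-0.24), RNPS1 (-0.28) and MAGOH (-0.13) with siSRSF1-2. EIF4A3 between the siRNAs became -0.32 with FPKM rescaled to the same sum. In these 7 of 702 values of single factors, the sign turned with both values larger than their SE. In all, the sign differed in 30, the others with at least one of the values under its SE. The causes were not tested. Over all genes, voom called 678 against 224 with siSRSF1-3, 502 against 207 with OE-LINC01134 and 150 against 15 between the siRNAs, and one fit over all 4 groups called 4870, 1172 and 5658 there and 659 against 4702 with siSRSF1-2. Over all alternatives these counts ran from 0 to 6292, 1 to 4618, 0 to 10731 and 0 to 9147. Rescaling to the same sum moved the median of all genes by over 0.1 with siSRSF1-3 (to -0.43), with siSRSF1-2 (0.15) and between the siRNAs (-0.57), and read totals moved it to -0.26, 0.06 and -0.31. With 3 libraries a group, intervals of SMG6 and SMG1 with siSRSF1-3 span more than 1 log2 unit.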
